A study of Mus musculus with 12 samples.

Results

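Granulosa cells of bERKO mice, which lack estrogen receptor beta, were compared with those of wild-type (WT) mice at a single stage, 48 h after pregnant mare serum gonadotropin (PMSG) and before any ovulatory signal. The comparison rests on 3 bERKO and 3 WT arrays, which are 6 of the 12 arrays of the series and were taken by their labels. The comparison itself was chosen with earlier results of these data known. In all 4 groups of the series, preovulatory granulosa cells were cut by laser microdissection from antral follicles of mice that were 3 weeks old, so the animals were immature and every one, WT controls included, had received PMSG. The other 6 arrays, 3 bERKO and 3 WT, came from mice that received PMSG and then human chorionic gonadotropin (hCG) for 4 h, and they are used here for the spread of each gene and for values set side by side. The sources used here name neither the allele and strain of the bERKO line nor the number of mice behind each array. Arrays of 1 group are labelled as biological replicates, and p-values measure only the spread between these samples, part of which may be technical.

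PMSG acts as follicle-stimulating hormone (FSH): it drives granulosa cells to divide, to make estradiol and to acquire the receptors for the luteinizing hormone surge, which hCG then imitates. Estrogen receptor beta, encoded by Esr2, is the main estrogen receptor of granulosa cells, while estrogen receptor alpha, encoded by Esr1, is best known from theca and interstitial cells. Mice without estrogen receptor beta are known for follicles that respond poorly to FSH and ovulate few oocytes. The comparison asks how far the granulosa cells of the mutant already differ when follicles reach the preovulatory stage.

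RNA was amplified from 25 ng per sample and hybridised to 1 single-colour oligonucleotide array each, and levels are given as log2(intensity + 16) after quantile normalization, a scale whose floor is 4. A difference is always the bERKO mean minus the WT mean on that scale, in log2 units, and the added 16 makes it smaller than the true ratio for dim genes. Each of 18193 genes was represented by the probe set with the highest mean. The granulosa character of the samples was checked on genes that define this cell type: the inhibin alpha subunit Inha lay between 13.65 and 14.47 on the 6 PMSG arrays, the transcription factor Foxl2 between 11.83 and 12.77, and the mean over 14 granulosa markers between 11.74 and 11.90. Aromatase (Cyp19a1) and the luteinizing hormone receptor (Lhcgr) had no probe set assigned to 1 gene and were not analysed here. One array stood apart: bERKO replicate 3 had a Gapdh 3'/5' signal ratio of 23.74, a measure of RNA that is short at its 5' end, against 4.91 to 6.33 on the other 5, and its lowest correlation with an array of its own group was 0.914. The actin 3'/5' ratio of bERKO replicate 3 was 1.61, against 0.98 to 1.15 on the other 5. Results that rest on this array are therefore given with and without it.

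Few genes differed singly. With limma's moderated test and Benjamini-Hochberg adjustment over all 18193 genes, 2 passed an adjusted p of 0.05 (0.011%), both lower in bERKO, and none was higher. At an unadjusted p of 0.05, 968 genes were higher (5.32%) and 765 lower (4.2%), so that 55.9% of these 1733 genes (9.53% of those tested) were higher. That split moved with the scaling, to 42.2% higher with the values as deposited and to 72.7% after centring of every array on its median, a scaling that moved the median difference of all genes from 0.04 to 0.24. The values of the bERKO group lay wholly above those of the WT group for 1481 genes (8.14%) and wholly below for 1197 (6.58%). The counts of every gene list below are to be read beside these shares. Without bERKO replicate 3, no gene passed the adjusted threshold by limma, and 756 genes were higher and 684 lower at the unadjusted one (4.16% and 3.76%). After hCG the same fit called 562 genes (3.09%).

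Esr2 itself was measured at 10.33, 9.01 and 9.33 on the WT arrays and at 8.19, 8.64 and 8.13 on the bERKO arrays. The groups did not overlap, and the bERKO values stayed well off the floor of the scale. The difference was -1.24 (SE 0.37), or 2.36-fold, and did not pass the threshold (limma adjusted p = 0.307, rank 332 of all genes by p). A single probe set reports Esr2, and where it lies relative to the deleted sequence is not stated in the labels, so this value does not check the genotype.

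The other estrogen receptor had the opposite sign. Esr1 lay at 8.76, 8.43 and 8.87 in WT and at 9.99, 10.34 and 9.65 in bERKO. All 3 bERKO arrays were above all 3 WT arrays, the 3 probe sets of Esr1 gave differences of 1.31 to 1.94, and the gene ranked 105 (difference 1.31, SE 0.32, limma adjusted p = 0.257). Without bERKO replicate 3 the difference was 1.48. After hCG it was -1.24, and the genotype difference of Esr1 at the later stage differed from that after PMSG by -2.55 (SE 0.45, limma interaction adjusted p = 0.0236). The steroid receptor and coregulator list, with 21 genes measured, held 2 genes higher and 2 lower at unadjusted p of 0.05 and had a median difference of -0.22. That median was 0.03 without bERKO replicate 3 and 0.08 with arrays centred on their medians, so the list as a whole had no fixed sign. Its other higher gene was Ncoa3, a coactivator of nuclear receptors, with 9.25, 8.96 and 8.93 in WT and 10.06, 9.96 and 10.38 in bERKO (difference 1.08, limma adjusted p = 0.279).

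The lower member of that list with the smallest p was Ahr, the aryl hydrocarbon receptor, a ligand-activated transcription factor of granulosa cells. Its WT values of 9.81, 9.79 and 9.92 were nearly equal, and its bERKO values were 8.21, 7.66 and 8.05. The difference of -1.87 (SE 0.27) ranked 4 and missed the threshold in this fit (limma adjusted p = 0.0614), and it was -1.91 without bERKO replicate 3. Arnt2, which pairs with receptors of the same protein family, ranked 18 in the other direction, at 6.03, 6.72 and 6.45 in WT and 8.14, 8.28 and 9.50 in bERKO. The 3 probe sets of Arnt2 gave differences of 1.32 to 2.24.

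The first gene called was Cadm3, a cell adhesion molecule of the immunoglobulin superfamily. It was measured at 9.15, 7.50 and 8.44 in WT and at 4.05, 4.15 and 4.05 in bERKO, where all 3 arrays lay at the floor of the scale. Cadm3 fell by 4.28 in bERKO (SE 0.47, limma adjusted p = 0.0123), its 3 probe sets ranged from -4.28 to -2.26, and it also ranked first without bERKO replicate 3 (difference -4.26, adjusted p = 0.0798). Because the bERKO values were at the floor, the size of the difference depended on the number added before the logarithm: over the other settings tried with all arrays it ran from -7.38 to -2.56. After hCG the order was turned: Cadm3 was at 4.10, 4.86 and 5.74 in WT and 7.27, 7.94 and 8.03 in bERKO, a difference of 2.85 (limma adjusted p = 0.0105).

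Promoters were read for the 15 genes of smallest p in each direction, among named genes whose groups do not overlap. The aim was to see whether they share an element of the receptor that the mutant lacks. RefSeq (GRCm38.p6) supplied a window from 250 bases before to 50 after the start for 13 of the 15 genes higher in bERKO and 8 of the 15 lower. None of these windows held the full palindromic estrogen response element, which is GGTCA, any 3 bases and then TGACC, found in 0.07% of all 32817 promoters, and none held CAAGGTCA, an element of the NR5A receptors, found in 1.56%, on either strand. No match says only that these letters are not in this window. The AP-1 element TGANTCA, through which estrogen receptors can act without touching DNA, was in 7.81% of all promoters and in those of Cadm3 among the lower genes and of Aifm3 and Exd1 among the higher ones. The promoters of Cadm3, the gene of smallest p, on chr1:173367646-173367945 (minus strand), and of Aifm3, on chr16:17489427-17489726 (plus strand), are shown with this element in capitals, at -186 to -180 and at -161 to -155 from the start. They were picked to be shown after the search.
Cadm3: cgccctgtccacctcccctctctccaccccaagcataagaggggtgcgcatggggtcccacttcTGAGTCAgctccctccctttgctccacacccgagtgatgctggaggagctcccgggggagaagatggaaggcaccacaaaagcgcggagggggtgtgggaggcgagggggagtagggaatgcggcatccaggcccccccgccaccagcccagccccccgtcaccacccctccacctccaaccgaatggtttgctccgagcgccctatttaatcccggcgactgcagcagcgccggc
Aifm3: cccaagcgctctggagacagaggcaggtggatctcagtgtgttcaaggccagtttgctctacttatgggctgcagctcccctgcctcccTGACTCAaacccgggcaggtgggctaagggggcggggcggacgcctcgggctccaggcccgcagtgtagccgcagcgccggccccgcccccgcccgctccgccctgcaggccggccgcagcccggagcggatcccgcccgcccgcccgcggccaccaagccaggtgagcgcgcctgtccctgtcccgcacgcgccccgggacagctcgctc

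The second called gene was Igk, the immunoglobulin kappa light chain locus, which is a product of B and plasma cells. WT values were 7.76, 9.18 and 9.62 and bERKO values 5.07, 4.17 and 4.17. Igk fell by 4.38 (SE 0.49, limma adjusted p = 0.0123), but its 4 probe sets ranged from -4.38 to 0.40 and the locus consists of many near-identical segments, so the value holds for 1 probe set. Among 10 measured B and plasma cell markers, Igk included, 2 were higher and 2 lower at unadjusted p of 0.05, and the median difference was 0.30, or -0.12 without bERKO replicate 3. Their summed intensity was 452 to 1146 on the WT arrays and 280 to 467 on the bERKO arrays. That sum counts Igk again, so it says nothing about these cells apart from Igk. Jchain, the joining chain of secreted antibodies, was also lower (5.55, 6.33 and 5.45 against 4.59, 5.13 and 4.82), while the B cell receptor gene Cd79b was higher (4.57, 4.20 and 4.12 against 5.31, 5.18 and 6.45). The part of B or plasma cells in the Igk result was not tested.

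**Figure D1:**
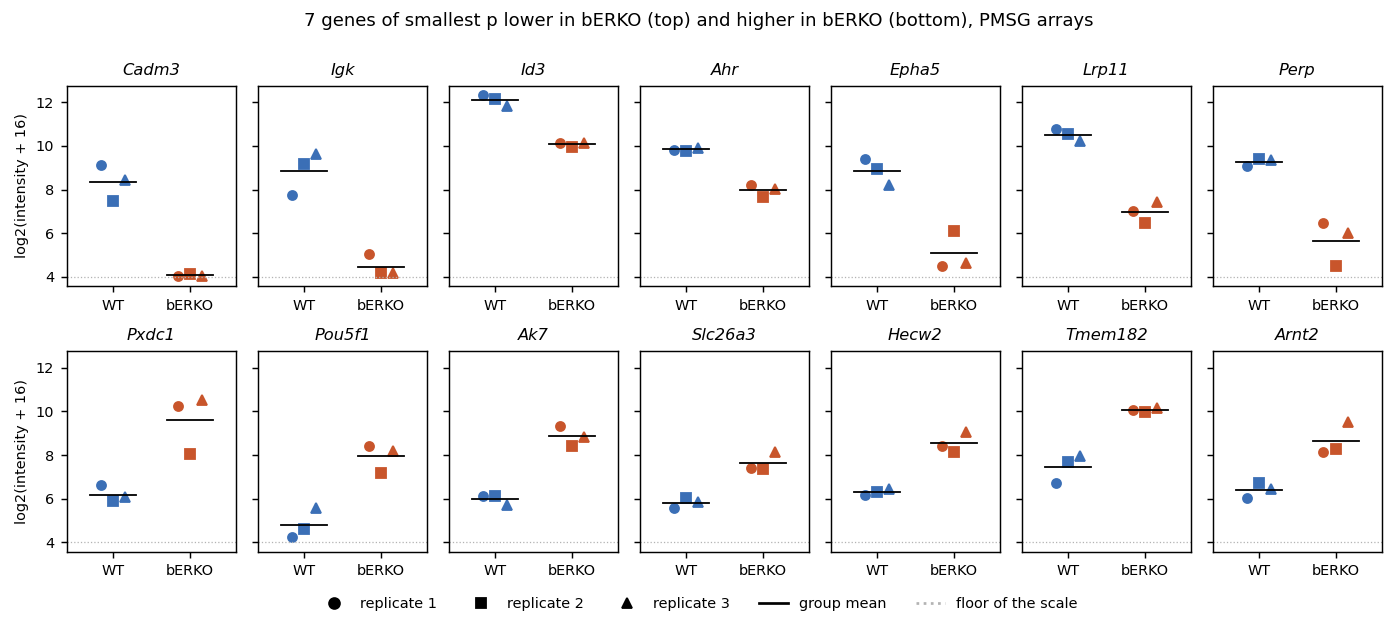
Level of 14 genes on the 6 PMSG arrays, as log2(intensity + 16), for the 7 genes of smallest p lower in bERKO (top row) and the 7 higher in bERKO (bottom row). Predicted and unnamed genes were skipped. Points are single arrays, marked by replicate number, short lines are group means and the dotted line is the floor of the scale, at which the bERKO values of Cadm3 lie.

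Behind these 2 genes stood others whose groups did not overlap. The 15 genes of smallest p in each direction were chosen among such genes, with predicted and unnamed genes skipped. The 15 lower genes ranked 1 to 30 by p, with differences from -1.22 to -5.27 and limma adjusted p of 0.0123 to 0.115. Without bERKO replicate 3 the differences ran from -1.32 to -4.82; groups that do not overlap cannot change sign when 1 array is left out. In 6 of the 15 the bERKO mean was under 5, close to the floor, where the ratio is a poor guide to size.

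Id3, an inhibitor of DNA-binding factors that is induced by bone morphogenetic proteins, was among the lower genes with bright probe sets. It was at 12.34, 12.14 and 11.85 in WT and at 10.12, 9.96 and 10.12 in bERKO. The bERKO arrays were nearly equal, and all lay below the lowest WT array, as the choice of these genes requires. The difference was -2.05 (SE 0.28, limma adjusted p = 0.0614, rank 3), and after hCG it was -1.25 (limma adjusted p = 0.0379), so Id3 was lower in bERKO at both stages. In the list of bone morphogenetic protein, activin and TGF-beta genes, 4 of 33 were lower and 1 higher at unadjusted p of 0.05, beside 4.2% and 5.32% of all genes, and 9 lay wholly below and 2 wholly above WT, beside 6.58% and 8.14%. The list median was -0.02, or -0.13 without bERKO replicate 3.

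Fst and Grem1 were members of that list with a negative difference. Fst, which encodes follistatin, a binding protein of activin, was at 13.83, 13.61 and 13.75 in WT and at 12.90, 13.06 and 12.81 in bERKO (difference -0.81, SE 0.26, limma adjusted p = 0.363). Grem1, an antagonist of bone morphogenetic proteins, was at 12.98, 12.60 and 12.26 in WT and at 11.20, 11.51 and 8.57 in bERKO. The lowest of these values came from bERKO replicate 3, and the difference of -2.18 was -1.25 without it. The activin and inhibin subunit Inhba differed by -0.18 and Inha by -0.34, and both had a positive sign when each array was centred on its median (0.42 and 0.21).

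Comp and Thbs4 encode proteins of the extracellular matrix. Comp, the cartilage oligomeric matrix protein of the thrombospondin family, was at 12.27, 11.69 and 11.70 in WT and at 7.19, 6.94 and 5.73 in bERKO. Its difference was -5.27 (SE 0.96, limma adjusted p = 0.113), and its SE takes in the WT values after hCG, which spread from 5.38 to 10.07. Thbs4, which encodes thrombospondin 4, was at 10.69, 10.70 and 10.14 in WT and at 6.56, 6.69 and 6.83 in bERKO, and was the only gene called when the 6 PMSG arrays were fitted alone. The other thrombospondin genes, looked up after the values of Comp and Thbs4 were seen, gave smaller differences: -0.81 for Thbs1, -0.91 for Thbs2 and -0.45 for Thbs3, of which Thbs2 alone had groups that did not overlap, though its 3 probe sets ran from -0.91 to 0.45. Over the 25 measured basement membrane and matrix genes the median was 0.09, or -0.16 without bERKO replicate 3. Among them 4 were lower and 1 higher at unadjusted p of 0.05, beside 4.2% and 5.32% of all genes. The higher one was Nid2, a basement membrane linker, at 7.15, 8.15 and 7.64 against 9.84, 9.85 and 10.03. Fn1, which encodes fibronectin, and Sparc, a matrix-binding glycoprotein, were among the lower ones, with differences of -1.30 and -1.29. The 2 probe sets of Fn1 gave -1.30 and -0.03, and the 3 of Sparc ran from -1.29 to -0.09.

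Epha5, a receptor for ephrins on neighbouring cells, was at 9.40, 8.96 and 8.22 in WT and at 4.50, 6.10 and 4.65 in bERKO. Its 4 probe sets gave differences from -3.77 to -0.27. Perp, a component of desmosomes that p53 induces, was at 9.08, 9.38 and 9.36 in WT and at 6.45, 4.51 and 6.02 in bERKO. Both genes were chosen among genes whose groups do not overlap, and for Perp the WT arrays were close to each other. Lrp11, a member of the low-density lipoprotein receptor family, had 10.77, 10.56 and 10.23 in WT and 7.03, 6.45 and 7.45 in bERKO (rank 6), and the scavenger receptor Scara3 had a difference of -2.53 (rank 8).

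The wider lists for cell contacts and guidance were also read. Of 27 cell adhesion and junction genes, 5 were lower and 1 higher at unadjusted p of 0.05, beside 4.2% and 5.32% of all genes. The median was 0.05, or -0.15 without bERKO replicate 3, with a change of sign in 10 of 22 other settings. The lower ones included Cdh2, N-cadherin, the main cadherin of granulosa cells, which was at 12.99, 12.82 and 12.75 in WT and 11.62, 11.70 and 11.61 in bERKO (difference -1.21, SE 0.24, limma adjusted p = 0.136, rank 37), and Nectin1, an adhesion molecule of adherens junctions (difference -2.54). Of 32 ephrin, semaphorin and netrin genes, 3 were lower and 2 higher, beside the same shares of all genes. Their median was -0.03, or -0.23 without bERKO replicate 3. Epha3, at 8.36, 6.31 and 8.47 against 4.96, 4.80 and 5.63, and the guidance ligand Slit2 (difference -1.20, though its 3 probe sets ran from -1.47 to 0.28) were the lower ones beside Epha5. The 4 probe sets of Epha3 ran from -3.07 to -0.26.

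The remaining lower genes were of varied kinds. Ank1, which encodes an ankyrin of the membrane skeleton, was at 10.41, 9.93 and 9.66 in WT and at 7.46, 7.09 and 6 in bERKO. Its 4 probe sets disagreed in sign, from -3.15 to 0.43. Hoxd10, a homeobox transcription factor, was at 10.10, 9.14 and 7.35 in WT and near the floor at 4.55, 4.25 and 4.34 in bERKO. Mro was at 11.45, 11.72 and 10.79 against 9.14, 9.63 and 8.79, while the milk protein gene Lalba (difference -1.22) and the calcium channel subunit gene Cacnb4 (difference -1.72, its 3 probe sets from -1.72 to 0.02) were near the floor in bERKO.

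Genes higher in bERKO did not pass the adjusted threshold. The 15 of smallest p ranked 9 to 32, with differences from 1.39 to 3.41 and limma adjusted p of 0.0786 to 0.134, and without bERKO replicate 3 the differences ran from 1.41 to 3.01. Pxdc1, a gene of little known function, led them at 6.61, 5.88 and 6.06 in WT and 10.23, 8.03 and 10.51 in bERKO. Ak7, an adenylate kinase, was at 6.12, 6.11 and 5.73 against 9.31, 8.43 and 8.82. Tmem182, a transmembrane protein, had 6.73, 7.69 and 7.97 in WT and the nearly equal values 10.08, 9.99 and 10.16 in bERKO. Ptgis, the prostacyclin synthase, was at 9.59, 9.43 and 8.91 in WT and at 11.56, 11.26 and 11.99 in bERKO. The chloride and bicarbonate exchanger Slc26a3 (1.81, its 4 probe sets from -0.28 to 1.81) and Aifm3 (1.75, its 2 probe sets at 0.17 and 1.75) were also higher. The ubiquitin ligase Hecw2 (2.24), the secreted phospholipase Pla2g10 (1.63), the matrix protein Vwa2 (1.39) and the transcript Rab11fip4os1 (1.62) completed this side, apart from 4 genes known from germ cells.

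Those 4 genes were Pou5f1, the pluripotency factor that oocytes also express, Tcl1, a coactivator of the kinase AKT abundant in oocytes, Aurkc, a kinase of meiosis, and Exd1, a factor of the germline piRNA pathway. Pou5f1 was at 4.25, 4.63 and 5.56 in WT and at 8.43, 7.20 and 8.20 in bERKO (difference 3.13, SE 0.50, limma adjusted p = 0.0786). Tcl1 had 4.38, 5.74 and 6.02 against 7.68, 8.40 and 7.87, and Aurkc had 4.56, 5.39 and 5.39 against 7.14, 7.36 and 8.59. Exd1 was at 5.17, 4.18 and 5.02 in WT and at 7.12, 6.62 and 8.47 in bERKO. All 4 were chosen among genes whose groups do not overlap, so their separation follows from the choice.

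Markers of the oocyte, the cell that granulosa cells enclose, had higher values in bERKO throughout the list. All 20 measured markers had a positive difference, and the median was 2.37, against 0.04 over all genes. At unadjusted p of 0.05, 15 were higher, beside 5.32% of all genes, and none was lower. For 11 the bERKO group lay wholly above WT, beside 8.14% of all genes. No marker passed the adjusted threshold. The smallest p belonged to Nobox, an oocyte transcription factor, at 4.21, 4.24 and 6.68 in WT and 7.52, 7.31 and 9.33 in bERKO (difference 3.01, limma adjusted p = 0.186). Bcl2l10, a survival factor abundant in oocytes, was at 7.92, 8.85 and 10.65 against 11.82, 11.37 and 11.64, and Nlrp5, a maternal effect gene, at 6.90, 7.25 and 9.64 against 9.62, 10.34 and 12.18.

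The arrays of 1 genotype differed among themselves in these markers. Their mean level was 5.82, 6.24 and 8.26 on the WT arrays and 8.67, 8.49 and 9.94 on the bERKO arrays, and their summed intensity was 1186 to 9702 in WT and 13104 to 32427 in bERKO. WT replicate 3 was the highest WT array and bERKO replicate 3 the highest of all 6. No marker lay under 5 on all 6 arrays. Without bERKO replicate 3 the median was 2.09 and 13 markers passed the unadjusted threshold. Without WT replicate 3 the median was 3.15 and 26 genes passed the adjusted threshold of limma over all genes, 20 higher and 6 lower, against 2 with all arrays. Those 26 included 4 oocyte markers, Bcl2l10, Nobox and the zona pellucida genes Zp2 and Zp3 (named after their values were seen), and Pou5f1. On the hCG arrays the mean level was 5.85 to 6.65 in WT and 6.30 to 7.61 in bERKO, with a median difference of 0.49. In dissected tissue, fewer cells of a type and less RNA per cell cannot be told apart, and the part of oocyte RNA in the genes higher in bERKO was not tested.

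**Figure D2:**
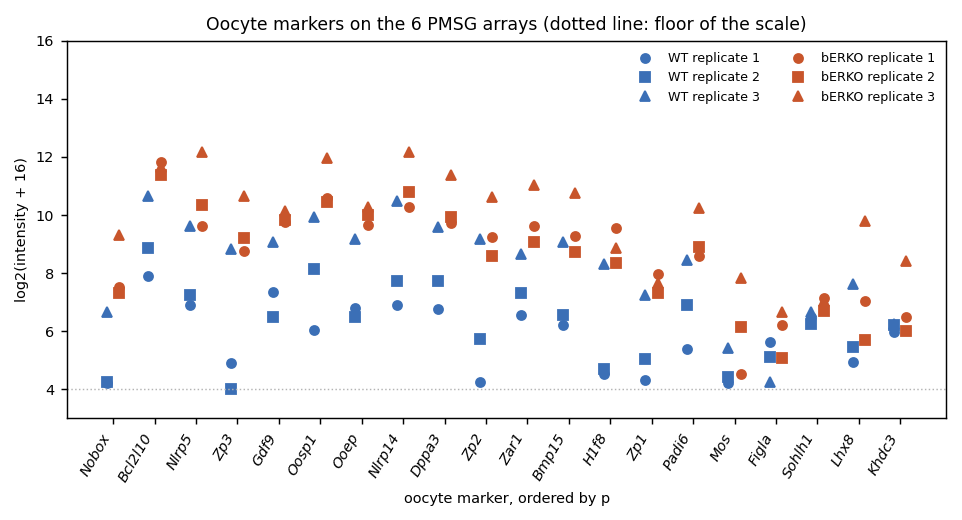
Level of the 20 measured oocyte markers on the 6 PMSG arrays, as log2(intensity + 16), ordered by p, with WT in blue and bERKO in red and 1 marker shape per replicate number. By the mean over the 20 markers, WT replicate 3 (triangles, 8.26) lies between the other WT arrays (5.82 and 6.24) and the bERKO arrays (8.49 to 9.94), while for single markers such as Nlrp5 it can lie above a bERKO array.

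Granulosa markers had a small median difference whose sign depended on the scaling. Of 14 measured, none was higher and 2 were lower at unadjusted p of 0.05, and their median was -0.24. That median was 0.05 with the values as deposited and 0.30 with arrays centred on their medians, where the median of all genes was also higher, so relative to all genes it was -0.28 in the fit reported and 0.07 with either of the other scalings. The 2 lower ones were Fst and Nr5a1, the nuclear receptor that drives steroidogenic genes, at 12.16, 11.51 and 11.95 in WT and 10.90, 11.44 and 10.71 in bERKO. Kitl, the granulosa ligand of the oocyte receptor KIT, was at 10.64, 10.28 and 9.72 against 10.77, 10.94 and 10.95 (difference 0.67, limma adjusted p = 0.524). Foxl2 (difference -0.40) and the cell cycle gene Ccnd2, an FSH target (difference 0.03), had groups that overlapped.

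FSH signalling in these cells was looked at through its receptor and 24 measured FSH-responsive genes. Fshr, the FSH receptor, was at 11.55, 11.37 and 11.71 in WT and at 11.19, 11.64 and 9.57 in bERKO. The bERKO replicate 3 value was low, and the difference was -0.74 with all arrays and -0.13 without replicate 3. Of the 24 genes, 7 were lower and none higher at unadjusted p of 0.05, 9 lay wholly below WT and none wholly above, where 4.2% of all genes were lower and 6.58% wholly below. The median was -0.30, or -0.18 without bERKO replicate 3, when 5 were lower. With arrays centred on their medians the list median was 0.14, which is -0.09 relative to all genes, against -0.34 in the fit reported. No member passed the adjusted threshold.

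Single FSH-responsive genes were separated between the groups. Ihh, Indian hedgehog, the granulosa signal to theca cells, was at 9.54, 8.69 and 9.01 in WT and at 8.09, 8.15 and 7.99 in bERKO (difference -1.01, limma adjusted p = 0.322), and after hCG its difference was -1.51 (limma adjusted p = 0.0246). Npr2, the receptor through which granulosa cells hold the oocyte in meiotic arrest, was at 10.76, 11.07 and 11.03 in WT and 10.12, 10.16 and 8.93 in bERKO. Its difference of -1.22 was -0.81 without bERKO replicate 3.

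Steroid synthesis genes included the largest FSH-responsive difference. Cyp11a1, the side-chain cleavage enzyme that makes pregnenolone, was at 11.35, 11.29 and 12.42 in WT and at 8.82, 9.68 and 5.44 in bERKO. All bERKO arrays were lower, replicate 3 by far, and the difference was -3.71 (SE 1.03, limma adjusted p = 0.297) with all arrays and -2.44 without bERKO replicate 3. Its 3 probe sets disagreed, from -3.71 to 0.37. Hsd11b2, which inactivates glucocorticoids, was more even, at 11.99, 12.15 and 11.88 against 10.69, 10.84 and 10.92 (difference -1.19, limma adjusted p = 0.283). Star, the cholesterol transporter of mitochondria, overlapped between the groups at 8.98, 8.14 and 9.96 against 8.43, 8.20 and 8.13.

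Over the 17 measured steroid genes, 4 were lower and none higher at unadjusted p of 0.05, beside 4.2% and 5.32% of all genes. The median was -0.24, or -0.25 without bERKO replicate 3 and 0.09 with arrays centred on their medians. Of 20 cholesterol synthesis and uptake genes, 1 was higher, the mevalonate kinase gene Mvk (difference 0.90), and none lower, with a median of -0.31, or -0.13 without bERKO replicate 3. Theca and interstitial markers, which would show cells from outside the granulosa layer, had a median of -0.01 over 9 genes. Their summed intensities were 13826 to 14460 in WT and 10781 to 12564 in bERKO, but a sum follows its brightest genes. The mean level of the 9 markers overlapped, at 7.67, 7.69 and 8.25 in WT and 7.81, 7.34 and 7.65 in bERKO. Without bERKO replicate 3 that median was -0.32, with none higher and 2 lower at unadjusted p of 0.05. With all arrays 1 gene was lower, the aminopeptidase Enpep, at 8.53, 7.96 and 7.99 in WT and 6.08, 5.55 and 4.21 in bERKO. The 1 higher gene was Agtr2, an angiotensin II receptor, at 5.60, 6.73 and 6.35 in WT and 8.08, 6.49 and 8.59 in bERKO, where the groups overlapped.

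**Figure D3:**
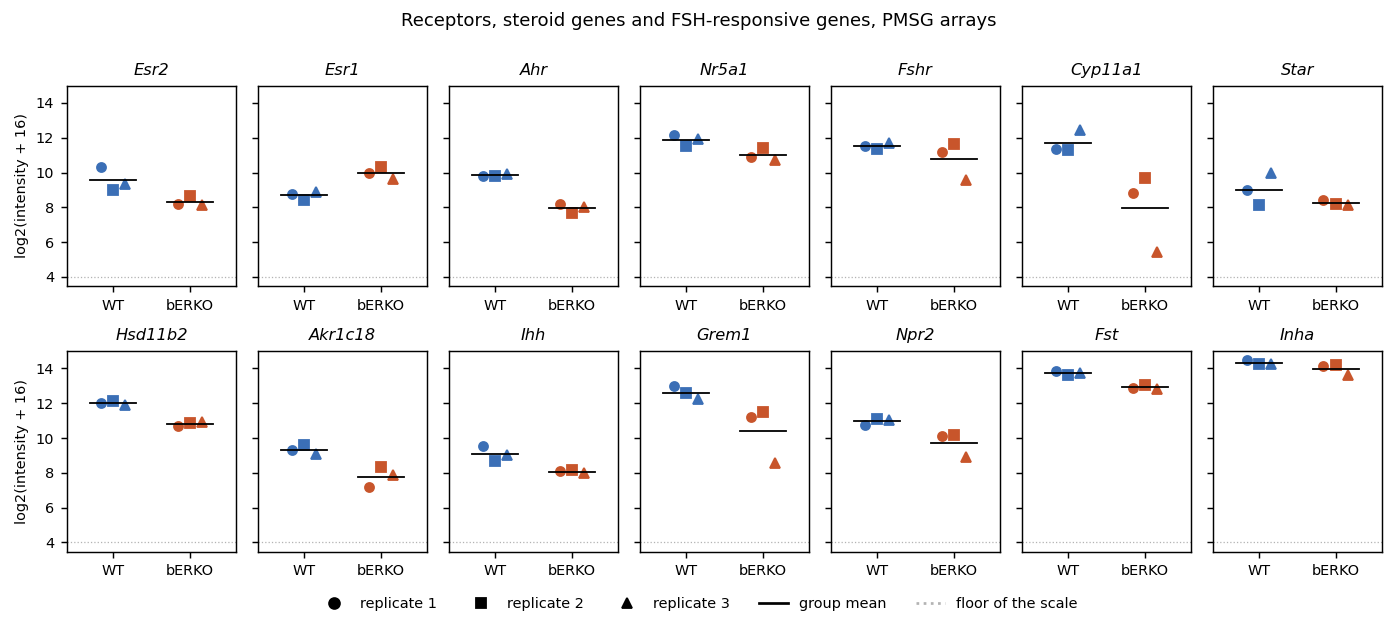
Level of 14 receptor, steroid and FSH-responsive genes on the 6 PMSG arrays, as log2(intensity + 16), with points for arrays, short lines for group means and a dotted line at the floor of 4. In Fshr, Cyp11a1, Grem1 and Npr2 the triangle of bERKO replicate 3 lies apart, at 9.57, 5.44, 8.57 and 8.93.

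Luteal markers, genes that rise when granulosa cells become the corpus luteum, had the lowest median of the 30 lists. Of 8 measured, 7 had a negative difference, and the median was -0.86, or -0.55 without bERKO replicate 3. At unadjusted p of 0.05, 3 were lower and none higher, beside 4.2% and 5.32% of all genes. The 3 genes were Sfrp4, a secreted antagonist of Wnt proteins, Ptgfr, the prostaglandin F receptor that mediates luteolysis, and Akr1c18, which breaks down progesterone. Sfrp4 was at 10.55, 10.35 and 11.70 in WT and at 6.41, 5.99 and 4.32 in bERKO (difference -5.30, SE 1.23, limma adjusted p = 0.22). Ptgfr was at 8.12, 5.91 and 8.65 against 5.20, 4.06 and 5.86, and Akr1c18 at 9.31, 9.60 and 9.10 against 7.18, 8.33 and 7.86. The 5 probe sets of Ptgfr ran from -3.2 to -0.13. On the hCG arrays the same list had a median of 1.44, with Sfrp4 at 6.74, 11.44 and 13.17 in WT and 14.34, 14.31 and 13.99 in bERKO.

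Other lists of signals had genes on both sides. Their counts are at unadjusted p of 0.05, where 4.2% of all genes were lower and 5.32% higher. Of 22 known estrogen-responsive genes, 2 were lower, Sfrp4 and Xbp1, a factor of the secretory pathway (difference -0.90), none was higher, and the median was 0.01. Of 25 Wnt genes 3 were higher and 1 lower with a median of -0.18, and without bERKO replicate 3 none was higher and 2 were lower with a median of 0.01. Lef1, a transcription factor of that pathway, was at 6.41, 4.84 and 6.13 against 6.40, 7.48 and 7.61, with 2 probe sets at -0.38 and 1.37, and the receptor gene Fzd6 had a difference of 1.14. Of 27 ovulatory response genes, which hCG induces later, 2 were higher and 1 lower with a median of -0.01. Cebpb, a transcription factor needed for ovulation, was at 10.43, 10.25 and 10.48 in WT and 10.96, 11.53 and 11.28 in bERKO, and the matrix protease gene Adamts4 had a difference of -2.08. The 2 probe sets of Cebpb gave 0.04 and 0.87. The immediate early factor Jun was at 9.96, 10.55 and 9.76 in WT and 8.24, 8.45 and 8.16 in bERKO (difference -1.81, limma adjusted p = 0.168), in a stress list whose median was 0.06, or -0.02 without bERKO replicate 3.

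Hypoxia and interferon lists also held single genes with clear separation. Epas1, a hypoxia-inducible factor, was at 12.27, 12.80 and 12.70 against 11.01, 11.02 and 11.35, while Adm, the vasodilator adrenomedullin, was higher at 10.90, 11.05 and 12.24 against 14.19, 13.07 and 14.13, though its 2 probe sets gave 0.05 and 2.40. The hypoxia and glycolysis list had a median of -0.36, which was -0.10 without bERKO replicate 3. Of 19 interferon-responsive genes, 4 were lower and 1 higher at unadjusted p of 0.05, beside 4.2% and 5.32% of all genes. Their median was -0.13. The antiviral genes Ifit1 (-1.79) and Xaf1 (-1.61, its 2 probe sets from -1.61 to 0.46) and the tether Bst2 (-0.76) had groups that did not overlap.

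Other cells of the ovary were looked at through their markers. Endothelial markers had a median of -0.20 over 12 genes, with summed intensities of 546 to 1036 in WT and 497 to 845 in bERKO, and Emcn, a sialomucin of vessels, was the 1 gene lower (5.56, 5.43 and 5.65 against 4.24, 4.77 and 4.18). Stromal and smooth muscle markers had a median of 0.40 with all arrays and -0.01 without bERKO replicate 3. Leukocyte markers had a median of 0.09. Surface epithelium markers had a median of 0.04 over 9 genes. With the filter on dim genes it was -0.92, but only 2 of these genes were left. Their summed intensity over all 9 was 851 to 1041 in WT and 361 to 641 in bERKO, ranges that did not overlap. Most of the WT sum came from Krt8, so it is largely a value of 1 gene. The keratin gene Krt8 was the 1 gene of that list lower at unadjusted p of 0.05, at 9.56, 9.34 and 9.66 against 7.62, 8.07 and 8.94. The part of these cells in the results was not tested. Of the 30 lists, 6 kept the sign of their median under all 22 other settings: oocyte and leukocyte markers (positive), and luteal, cholesterol, hypoxia and interferon genes (negative). The settings share most arrays, and a kept sign can go with a median near 0. The leukocyte median fell to 0.01, below the 0.04 of all genes in the fit reported. The cholesterol, hypoxia and interferon medians came as close to 0 as -0.07, -0.05 and -0.04.

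**Figure D4:**
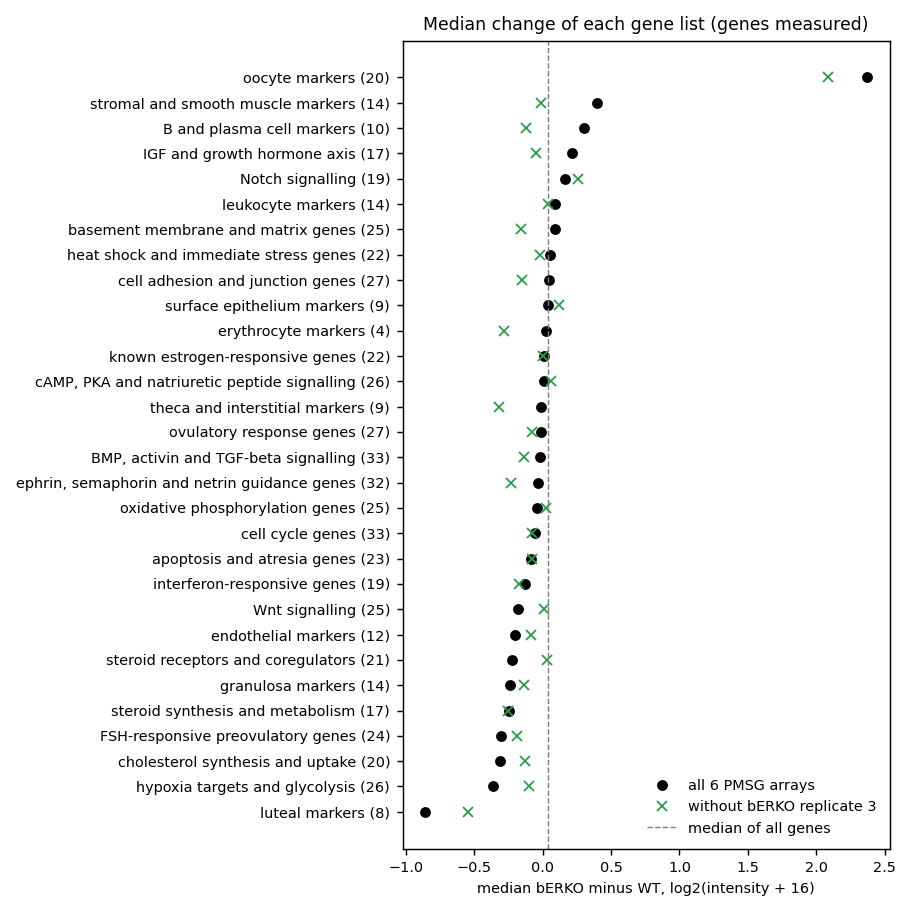
Median difference, bERKO minus WT after PMSG in log2(intensity + 16), of each of the 30 gene lists with the number of genes measured, with all 6 arrays (dots) and without bERKO replicate 3 (crosses), and a dashed line at the median of all genes (0.04). Oocyte markers (2.37 and 2.09) and luteal markers (-0.86 and -0.55) lie farthest out.

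The ranking by p was compared with the one made without bERKO replicate 3. Of the 50 top genes each way, 28 higher and 30 lower ones (56% and 60%) were also among the top 50 without it, and of the top 500 each way 303 and 305 (60.6% and 61%) were. Taking the 10 genes of smallest p each way without that array gave 20 genes, 13 of them already described and 7 new. Among the new ones Abra, an actin-binding activator of transcription, was at 4.28, 4.08 and 4.19 in WT and at 6.98, 7.28 and 4.41 in bERKO, and ranked 2 without replicate 3 against 395 with it. Ces1d, a carboxylesterase, had 7.66, 7.74 and 8.72 against 4.18, 5.26 and 7.20. Ddah1, which breaks down inhibitors of nitric oxide synthesis, had 12.30, 12.79 and 12.10 against 7.78, 8.20 and 10.58. In each of these 3 genes bERKO replicate 3 lay closer to WT than the other bERKO arrays did. The same held for Fndc5 (8.77, 8.74 and 8.82 against 10.34, 10.55 and 9.63), H3f3b and Klhl28. It also held for Acer1, whose bERKO replicate 3 value of 4.09 was as low as the lowest WT value. These genes were chosen with replicate 3 left out and did not lead with it, so its nearness to WT follows largely from the choice.

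The genes that led after PMSG are given with their difference after hCG. Of the 15 lower genes, 11 had a positive difference after hCG, from 0.26 for Lalba to 3.26 for Comp, and 4 a negative one. Of the 15 higher genes, 9 had a negative difference after hCG, down to -1.92 for Tmem182. An interaction at adjusted p of 0.05 (limma, 239 genes or 1.31% of all) was found for 12 of the 15 lower and 5 of the 15 higher genes, but these genes were chosen by their values after PMSG, which the interaction uses again, so these counts describe them and support nothing. For Comp the arrays after hCG read 5.38, 5.80 and 10.07 in WT and 10.36, 9.92 and 10.76 in bERKO. For Thbs4 they read 7.68, 6.19 and 10.06 against 9.82, 9.73 and 10.39. In both genes WT replicate 3 after hCG lay within the range of the bERKO arrays. WT replicate 1 after hCG had a Gapdh 3'/5' ratio of 32.16, though its actin 3'/5' ratio was 1.02. On WT replicate 1 after hCG the mean over 27 ovulatory response genes was 7.92, against 10.45 and 10.52 on the other WT arrays after hCG. The WT arrays after PMSG had 7.10 to 7.45. Every difference after hCG and every interaction in the fit reported includes that replicate 1 array. Over the top 50 genes each way, 21 of the higher (42%) and 18 of the lower (36%) kept their sign after hCG, where 43.0% and 50.7% of all genes with a positive or negative difference did.

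**Figure D5:**
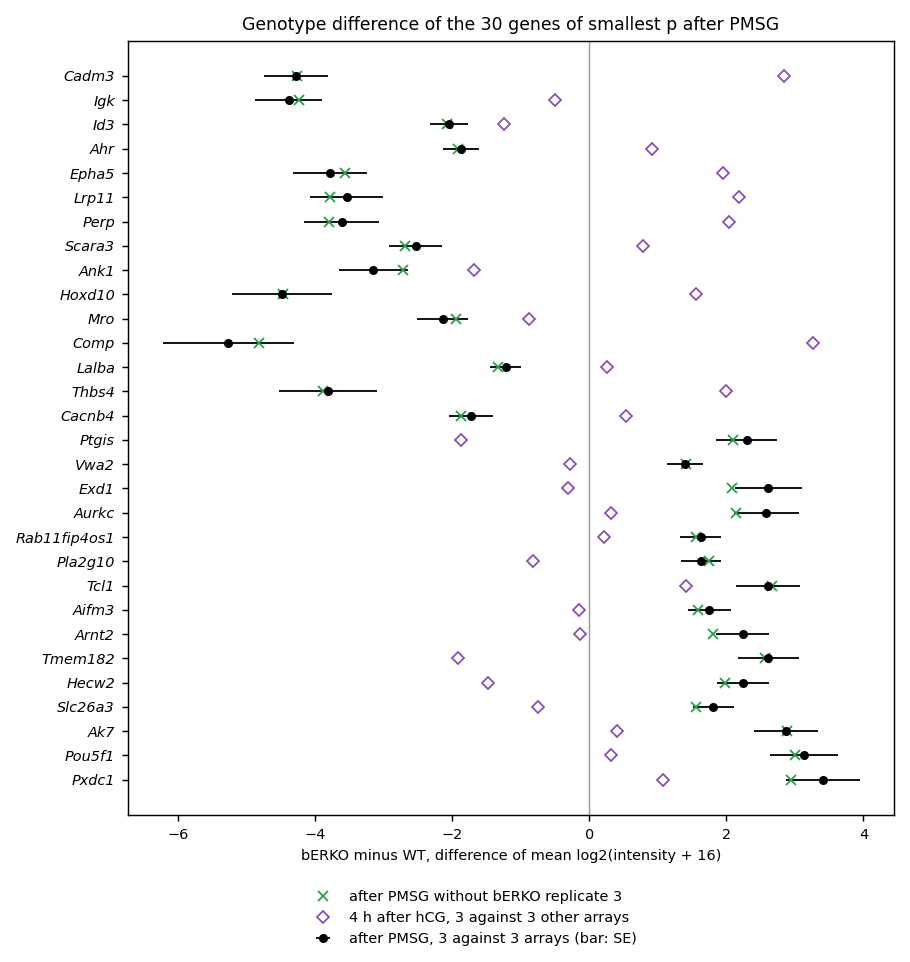
Genotype difference (bERKO minus WT, log2(intensity + 16)) of the 30 genes of smallest p after PMSG with all 6 arrays (black, bar for the SE), without bERKO replicate 3 (green crosses) and 4 h after hCG on 6 other arrays (open diamonds). The genes were taken 15 each way, with predicted and unnamed genes skipped. The 30 genes have groups that do not overlap, which keeps the crosses on the side of the black dots, while 11 of 15 lower and 9 of 15 higher genes have their diamond on the other side of 0.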

How the data were processed

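The deposited values are intensities per probe set on a linear scale, 1 column for each of 12 arrays, and the values show that the authors scaled every array to the same 2% trimmed mean (500). The sources used here do not name the summary software. RNA was extracted with the PicoPure kit and amplified and labelled with NuGEN kits, per the labels' protocols. From these, 45037 non-control probe sets were quantile normalized and taken as log2(intensity + 16). Probe sets naming 1 gene (34945) were kept, each gene by its brightest on average (18193 genes). limma 3.58.1 (R 4.3.3) fitted 4 group means over all 12 arrays, with two-sided moderated tests and Benjamini-Hochberg adjustment over all genes at 0.05, and was tested on simulated data. An array's number of replicates, 3 per group, limits the precision. The 30 gene lists (595 genes, 549 measured), the 122 genes selected for naming and the comparison itself were chosen with earlier results of these data known. The naming rule took the 15 genes of smallest p each way whose groups do not overlap, 10 each way without bERKO replicate 3, the 3 of smallest p in each list, and 10 measured genes named in every case. Predicted and unnamed genes were skipped in the rankings over all genes. Alternatives tried were the deposited scale, median centring, added constants of 1 and 64, a filter on dim genes, all probe sets, the 6 PMSG arrays alone, the replicate number as a block, array weights, and leaving out arrays. Figures were drawn with matplotlib 3.10.9.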

Additional observations from a re-analysis of the deposited data

Results flagged for a closer look

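For 29 of the genes described, the genotype difference after hCG differed from that after PMSG by the interaction test (limma, adjusted p of 0.05 over all 18193 genes). Over all genes the test called 239 (1.31%), and 115 without WT hCG replicate 1. Most of the 29 genes were selected by their values after PMSG, which the interaction uses again, so the list describes them and supports nothing. Each value is the difference after hCG minus the difference after PMSG, in log2 units. Among genes lower in bERKO after PMSG, it was 9.05 for Sfrp4, 8.53 for Comp, 7.12 for Cadm3, 7.06 for Ptgfr, 6.22 for Epha3, 6.05 for Hoxd10 and 5.82 for Thbs4. It was 5.72 for both Epha5 and Lrp11, 5.65 for Perp and 5.18 for Adamts4. Smaller values were found for Igk (3.88), Slit2 (3.84), Emcn (3.70), Scara3 (3.32), Akr1c18 (3.17), Sparc (3.15), Ahr (2.79), Fn1 (2.74), Cacnb4 (2.26) and Lalba (1.48). Among genes higher in bERKO after PMSG, it was -4.53 for Tmem182, -4.16 for Ptgis, -3.71 for Hecw2, -3.55 for Fndc5, -2.94 for Nid2, -2.55 for both Esr1 and Slc26a3, and -2.45 for Pla2g10.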

How the results depend on the processing

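With 3 arrays a group, 2 calls and many genes near the floor, the number of genes called after PMSG depended on the setting. It was 7 with the deposited scale, 5 with median centring, 0 with an added constant of 1, 12 with 64, 4 with the filter on dim genes, 1 with the 6 PMSG arrays alone, 7 without both arrays of high Gapdh ratio, and 0 to 26 with 1 array left out. The highest count came without WT PMSG replicate 3. The interaction count of 239 was 95 with an added 1, 454 with 64, 390 with the filter, 420 with array weights, 120 without both arrays, and 81 to 408 with 1 array left out. With the replicate number as a block, 2 genes were called after PMSG and 129 by the interaction. Deviations of same-numbered WT and bERKO arrays correlated at 0.001, -0.044 and 0.061 after PMSG and at 0.074, -0.009 and 0.119 after hCG. With 3 arrays a group, such values cannot decide whether the numbers pair the samples. Esr2 kept its sign in all 22 settings, from -1.51 to -0.85 with 1 array left out, and was called in none. Inhba turned positive with the deposited scale (0.17), median centring (0.42) and all probe sets (0.056), and Inha with median centring (0.21). Ccnd2, at 0.03, turned negative with array weights (-0.024), without both arrays (-0.093) and without WT PMSG replicate 2 (-0.060), bERKO PMSG replicate 2 (-0.00085) or bERKO PMSG replicate 3 (-0.093), and ranged from -0.093 to 0.18 with 1 array left out. The cause of these changes was not tested.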

Other observations

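Probe sets that name no single gene, 10092 in all, held 1 that passed limma's adjusted threshold over all 45037 probe sets. The probe set 1436889_at was at 8.30, 8.38 and 8.40 in WT and at 5.29, 5.33 and 5.33 in bERKO after PMSG (difference -3.05, SE 0.37, adjusted p = 0.0368). In the fit of every one-gene probe set, 1 of the probe sets of Aspscr1, which encodes a tether of the glucose transporter GLUT4, was also called: 1458570_at was at 7.20, 7.18 and 6.51 in WT and at 4.61, 4.46 and 4.54 in bERKO (difference -2.43, SE 0.28, adjusted p = 0.0214). Both were singled out after their values were seen.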
